A study of Homo sapiens with 14 samples.

Results

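The 10 genes described here encode parts of the bone morphogenetic protein (BMP) pathway: the secreted modulator KCP, the receptors BMPR1A and BMPR2, the receptor-regulated SMAD1 and SMAD5, the inhibitory SMAD6 and SMAD7, and the target genes ID1, ID2 and ID3. Their H3K4me2 was measured by ChIP-seq in the triple-negative breast cancer line MDA-MB-231, a long-established culture line. For each gene, every deposited region that overlapped its RefSeq span or lay within 20 kb of it was taken, which gave 39 of the 54942 regions. SMAD6 and KCP were chosen by the log2 fold changes of regions inside them, which were among the largest of an earlier fit of the same comparison, so their values are given as a description without a p-value. The other 8 genes have known roles in the same pathway. The outermost region kept lay 19.6 kb outside KCP (0.323 and 0.599 normalised CPM with DMSO and OICR-9429), and the nearest one left out lay 20.8 kb outside BMPR2 (3.32 and 1.92).

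The comparison was between 3 libraries of cells given OICR-9429 and 3 libraries of cells given the solvent DMSO. OICR-9429 is a small molecule that occupies the peptide-binding pocket of WDR5, a subunit shared by the complexes that methylate H3K4. Treatment lasted 24 to 96 hours and the time of a single library is not stated. Drosophila chromatin (5%) was added before the antibody in both groups, but its read counts were not used here. The untreated library and the input libraries of the series were not analysed here. Both groups were the parental line. The libraries are labelled biological replicates, with nothing on whether each had its own culture, so p-values measure the spread between these libraries, which may be technical. A bulk ChIP value cannot tell a lower level in every cell from a loss in some of the cells. All coordinates are hg38.

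In the canonical pathway BMP ligands join type I receptors such as BMPR1A with type II receptors such as BMPR2, and the type I kinase then phosphorylates SMAD1, SMAD5 and SMAD9. These bind SMAD4, enter the nucleus and activate genes such as ID1, ID2 and ID3, whose products block basic helix-loop-helix transcription factors. SMAD6 and SMAD7 are themselves induced by the signal and act as feedback inhibitors. H3K4me2 marks active and poised gene starts and also distal regulatory elements, and it is not a measure of transcript level.

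The sequences of 5 gene starts are shown because their genes carried the largest values described below (SMAD6 and KCP) or are the standard transcriptional readout of the pathway (ID1 and ID2), and because the start of SMAD1 was the start among the other 8 genes with the largest change. Each is the 250 bases before the first start site listed for the gene, written 5′ to 3′ on the gene's strand, from RefSeq's GRCh38.p14 promoter table, in which all 10 genes were found. For SMAD1 the first listed site (chr4:145481306) lies inside the RefSeq span, which begins at chr4:145480770. Its window therefore lies within the annotated gene and not upstream of it. Capitals mark matches, on either strand, to the 6 motifs searched: the GC-rich palindrome GGCGCC, the SMAD box stretch GTCTAGA, the CRE-like stretch TGACGTC, the NF-Y box CCAAT, the Sp1 box GGGCGG and the E-box CACGTG. The windows are chr15:66701986-66702235 (plus strand) for SMAD6, chr7:128910710-128910959 (minus) for KCP, chr4:145481056-145481305 (plus) for SMAD1, chr20:31605039-31605288 (plus) for ID1 and chr2:8681806-8682055 (plus) for ID2.
SMAD6: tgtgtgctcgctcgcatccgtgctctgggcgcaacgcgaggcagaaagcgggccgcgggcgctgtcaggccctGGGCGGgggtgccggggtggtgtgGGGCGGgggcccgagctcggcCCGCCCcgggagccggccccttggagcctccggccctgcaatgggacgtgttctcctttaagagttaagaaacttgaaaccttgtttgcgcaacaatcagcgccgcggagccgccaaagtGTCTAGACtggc
KCP: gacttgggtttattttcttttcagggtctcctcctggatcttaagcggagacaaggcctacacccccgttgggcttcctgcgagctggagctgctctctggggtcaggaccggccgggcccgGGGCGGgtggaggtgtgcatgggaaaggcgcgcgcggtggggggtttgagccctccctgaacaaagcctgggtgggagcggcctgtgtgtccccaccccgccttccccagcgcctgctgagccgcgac
SMAD1: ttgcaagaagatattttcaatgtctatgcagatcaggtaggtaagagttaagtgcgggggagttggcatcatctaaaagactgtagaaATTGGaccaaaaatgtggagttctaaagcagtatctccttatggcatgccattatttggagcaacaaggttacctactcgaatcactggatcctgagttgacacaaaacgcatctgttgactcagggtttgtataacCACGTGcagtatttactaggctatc
ID1: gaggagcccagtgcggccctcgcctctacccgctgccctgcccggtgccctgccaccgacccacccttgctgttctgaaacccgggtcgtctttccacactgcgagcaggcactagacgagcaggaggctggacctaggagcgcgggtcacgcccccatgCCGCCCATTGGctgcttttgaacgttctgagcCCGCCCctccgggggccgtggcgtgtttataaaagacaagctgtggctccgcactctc
ID2: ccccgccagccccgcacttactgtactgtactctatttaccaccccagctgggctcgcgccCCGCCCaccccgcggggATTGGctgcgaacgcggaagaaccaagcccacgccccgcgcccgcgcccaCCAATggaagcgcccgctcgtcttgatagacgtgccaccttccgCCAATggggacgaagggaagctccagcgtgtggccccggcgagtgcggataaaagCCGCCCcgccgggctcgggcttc

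SMAD6 was the only gene of the 10 whose window matched GTCTAGA, a sequence that contains the GTCT core recognised by SMAD proteins, and it did so on both strands in overlapping matches that begin 12 and 11 bases before the start. Of 22199 promoter windows of protein-coding genes, 1.16% held this motif. GGGCGG, the GC box, was found in the windows of SMAD6, SMAD5, KCP, BMPR2, ID1 and ID2, and in 53.7% of all windows. CCAAT was found at SMAD1, ID1 and ID2, with 3 matches at ID2 (32.7% of all windows). GGCGCC was found only at BMPR2 (20.7% of all windows), CACGTG only at SMAD1 (7.37%) and TGACGTC at none of the 10 (3.73%). Apart from the pair at SMAD6, no matches overlapped. A match is a description of the letters in these windows. The G and C content of the 10 windows ran from 41.2% at SMAD1 to 79.2% at BMPR2, with a median of 66.2% beside 62.0% for all windows. The values and matches of SMAD1 describe a window inside its gene span.

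Every one of the 10 genes had a region within 1 kb of an annotated start, called its start region below. These start regions were mostly broad. That of SMAD7 was 14.8 kb wide, that of ID1 11.5 kb and that of ID3 8.54 kb, against a median of 3.82 kb over 10369 start regions of protein-coding genes. These were wider than 97.1%, 94.5% and 88.8% of start regions, in the same order. KCP was the exception, with a start region of 1.24 kb, wider than 6.68% of all. Per kilobase, ID1 had the densest mark of the 10 in DMSO cells, at 14.3 normalised CPM per kb (CPM, read counts scaled to library size, here after TMM, the trimmed mean of M-values), above 94.5% of start regions. SMAD6 followed at 11.5 and ID2 at 10.5 normalised CPM per kb, and SMAD7, the widest, was the thinnest at 5.24. The median of all tested start regions was 8.31.

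Depth was 16483098 to 23509413 counts per library over all regions. DMSO replicate 3 stood apart from the other DMSO libraries at gene starts: it was the highest DMSO library at 91.1% of 10137 tested start regions and at 10 of the 10 described here. Its part in the results was not tested beyond leaving it out. Start regions of the mesenchymal and basal genes VIM, CD44 and EGFR and of the luminal genes ESR1, PGR and GATA3 all carried the mark in DMSO cells (8.40 to 12.4 normalised CPM per kb), so the mark at these starts does not tell the labelled line from a luminal one.

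**Figure D1:**
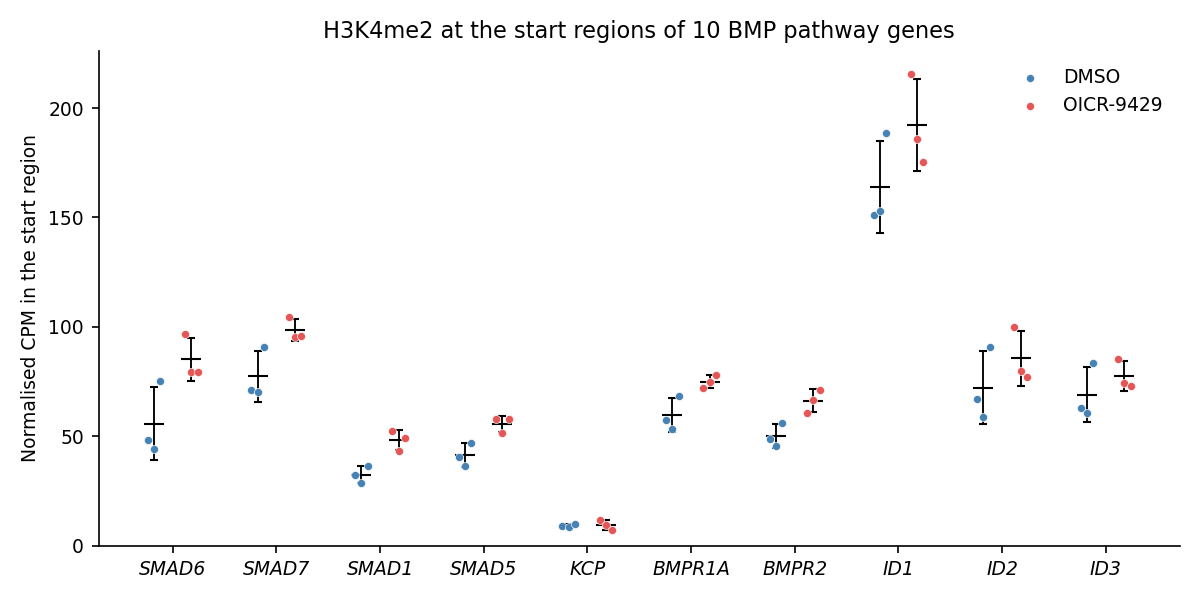
Normalised CPM in the start region of each of the 10 genes, by library (points, 3 per group), with the group mean and SD (bars). The groups separate, OICR-9429 above, in SMAD1, SMAD5, SMAD6, SMAD7, BMPR1A and BMPR2, and in KCP, ID1, ID2 and ID3 the groups overlapped.

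KCP, kielin/chordin-like protein, is a secreted protein that binds BMP ligands and enhances their signalling. Its span had 3 regions, and another 3 lay within 20 kb beyond its 3′ end, in or at other genes. The region inside KCP centred 7.03 kb from its start (chr7:128902782-128904586) had 14.2, 15.96 and 10.3 normalised CPM in DMSO replicates 1 to 3. In OICR-9429 replicates 1 to 3 it had 40.8, 33.1 and 36.0. The lowest treated library was thus above the highest control by a wide margin, with a log2 fold change of 1.44 (SE 0.16), a 2.72-fold difference, and values of 1.28 to 1.52 with any 1 library left out.

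That change was not shared by the KCP start. The start region had 8.79, 8.38 and 10.0 normalised CPM with DMSO and 11.9, 9.66 and 7.30 with OICR-9429, and the groups overlapped (log2 fold change 0.10, SE 0.17; -0.10 with library totals). A region further inside, 19.6 kb from the start, also overlapped between groups, at 8.59 to 13.8 with DMSO and 6.33 to 12.4 with OICR-9429 (log2 fold change -0.11, SE 0.22). Per kilobase, the region at 7.03 kb had the same order of mark as the start in DMSO cells (7.47 and 7.32 normalised CPM per kb), but 20.3 against 7.77 in OICR-9429 cells. Outside the gene, the region at the start of the proton pump gene ATP6V1F had a log2 fold change of 0.57 (SE 0.15), with groups that did not overlap, and the region in SPMIP1 one of 0.09 (SE 0.18; -0.10 with library totals and -0.11 with loess offsets). A weak region in the filamin gene FLNC held 4 to 14 counts per library and did not pass the count filter.

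**Figure D2:**
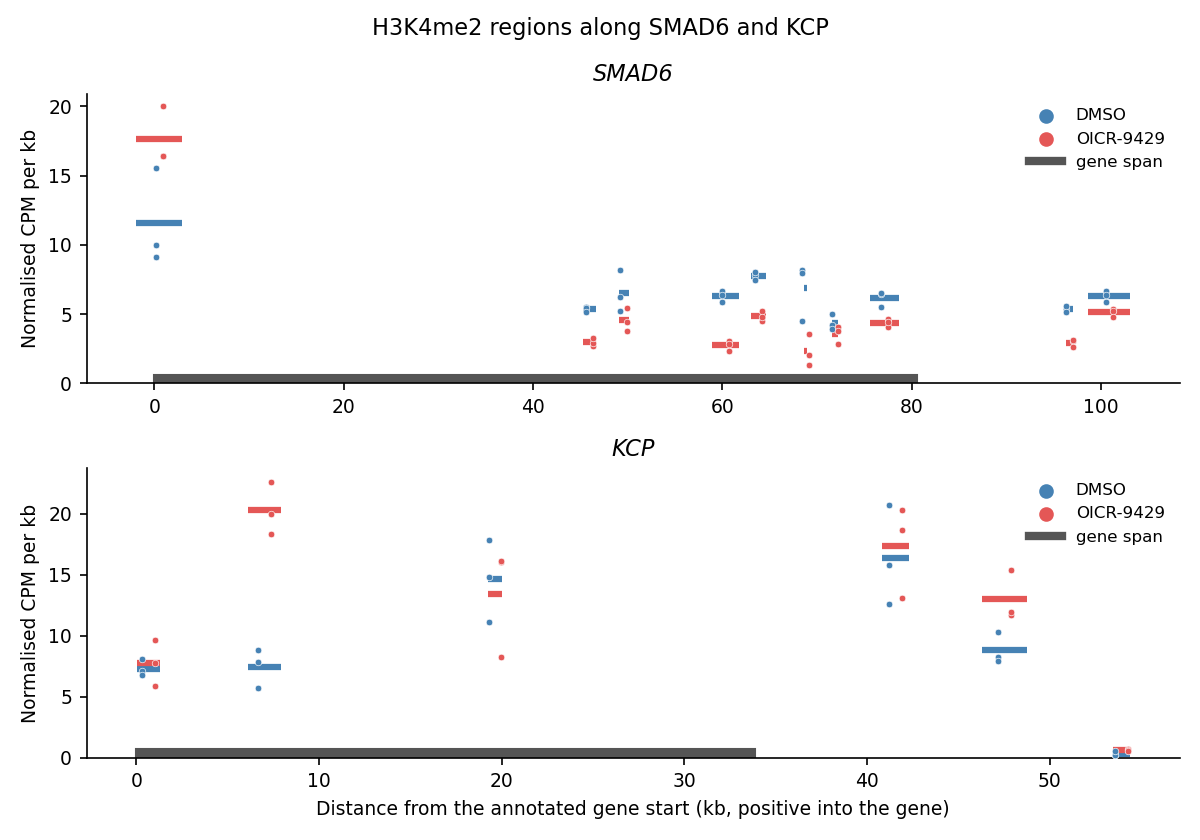
H3K4me2 along SMAD6 (top) and KCP (bottom): each bar spans a region at its group mean of normalised CPM per kb, points are the 3 libraries of a group, and the x axis is the distance from the gene start in kb. In SMAD6 the OICR-9429 mean lay above the DMSO mean at the start and below it in the 9 other regions, and in KCP the separation was at the region 7.03 kb from the start and at the ATP6V1F start.

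BMPR1A, also known as ALK3, is a type I BMP receptor kinase. Its start region (chr10:86753811-86759853) had 57.4, 53.3 and 68.6 normalised CPM in the DMSO libraries. In the OICR-9429 libraries it had 72.1, 74.9 and 78.0. The groups did not overlap, but the difference missed the threshold (log2 fold change 0.33, SE 0.12, edgeR quasi-likelihood test with Benjamini-Hochberg adjustment over all tested regions, adjusted p = 0.0539) and was 0.00 with loess offsets, a scaling that takes out any dependence of the fold change on signal strength. A weak region inside the gene, 39.6 kb from the start, fell from 2.44 ± 0.362 to 1.54 ± 0.322 normalised CPM (SD, n = 3; log2 fold change -0.67, edgeR adjusted p = 0.0421). That call was lost with loess offsets (-0.33), with DESeq2, or on leaving out DMSO replicate 1 or 2 or OICR-9429 replicate 1 or 3 (edgeR adjusted p up to 0.303, with loess offsets). The region beyond its 3′ end, in MMRN2, had a log2 fold change of 0.16 (95% interval -0.16 to 0.47; -0.04 with library totals).

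BMPR2, the type II receptor that activates BMPR1A, showed opposite changes at its start and inside the gene. The start region (chr2:202373855-202381426) had 48.8, 45.4 and 56.3 normalised CPM with DMSO and 60.8, 66.8 and 71.2 with OICR-9429. It rose by 0.40 on the log2 scale (SE 0.13, edgeR adjusted p = 0.0265), with no overlap between groups. The region inside the gene, 153.8 kb from the start (chr2:202529080-202531086), had 6.60, 6.41 and 7.26 with DMSO and 2.35, 3.96 and 4.20 with OICR-9429. Every treated library was below every control, and the region fell by 0.97 on the log2 scale (SE 0.20, edgeR adjusted p = 0.00561). The fall was called under all 13 alternatives applied to single regions, with a log2 fold change of -0.80 to -1.12 with 1 library left out. The rise at the start was lost with library totals (0.21), with loess offsets (0.08) or on leaving out DMSO replicate 1 or 2 or OICR-9429 replicate 2 or 3, with edgeR adjusted p up to 0.575 (loess offsets).

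SMAD1 and SMAD5 carry the signal from the BMP receptors to the nucleus. The SMAD1 start region (chr4:145480481-145484567) had 32.2, 28.7 and 36.3 normalised CPM with DMSO. With OICR-9429 it had 52.2, 43.2 and 49.3. All treated libraries were above all controls, and the region rose by 0.58 on the log2 scale (SE 0.13, edgeR adjusted p = 0.00784), the largest change at a start among the 8 genes. This call held under all 13 alternatives, at 0.27 with loess offsets (edgeR adjusted p = 0.0470) and 0.38 with library totals. The region inside SMAD1, 65.0 kb from the start, did not separate the groups, with 6.77 to 8.96 in DMSO and 5.16 to 9.88 in OICR-9429 libraries (log2 fold change -0.05, 95% interval -0.48 to 0.38; 0.04 with loess offsets).

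SMAD5 had a single region, at its start (chr5:136131611-136136374). It held 40.6, 36.6 and 47.1 normalised CPM with DMSO and 57.7, 51.5 and 57.8 with OICR-9429. The groups did not overlap and the region rose by 0.43 on the log2 scale (SE 0.13, edgeR adjusted p = 0.0229). The call was lost with library totals (0.23), with loess offsets (0.11) or on leaving out DMSO replicate 1 or 2 or OICR-9429 replicate 3 (edgeR adjusted p up to 0.347, with loess offsets). The start region also overlapped the antisense RNA gene SMAD5-AS1, and ChIP reads do not tell the strands apart.

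SMAD6 blocks BMP signalling preferentially, by binding the type I receptors and competing with SMAD4 for SMAD1. It had 10 regions, and its start moved against the rest of the locus. The start region (chr15:66700347-66705178) had 48.1, 44.2 and 75.1 normalised CPM with DMSO and 96.6, 79.4 and 79.5 with OICR-9429. DMSO replicate 3 was far above the other controls there, and the treated libraries were above all 3 (log2 fold change 0.61, SE 0.17). The value was 0.42 without DMSO replicate 2, 0.89 without DMSO replicate 3 and 0.29 with loess offsets.

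The other 9 SMAD6 regions, 7 inside the gene and 2 beyond its 3′ end, all had negative log2 fold changes with TMM, from -0.30 to -1.63 with a median of -0.69. In 7 of the 9 every OICR-9429 library was below every DMSO library, as in 25.9% of all regions away from starts, and nothing is read from that count in a gene chosen for such changes. The second most negative value was 60.3 kb from the start (chr15:66761141-66764014), with 16.8, 19.1 and 18.4 normalised CPM in DMSO and 8.82, 8.08 and 6.78 in OICR-9429 libraries, a log2 fold change of -1.19 (SE 0.14). Its neighbour at 63.9 kb (chr15:66765316-66766859) had 12.1, 11.6 and 12.4 against 8.03, 6.90 and 7.43, again without overlap (-0.69, SE 0.14).

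The most negative value in SMAD6 belonged to its narrowest region. At 68.8 kb from the start (chr15:66770867-66771193) there were 50, 49 and 27 counts in DMSO and 9, 12 and 18 in OICR-9429 libraries, a log2 fold change of -1.63 (SE 0.34). At 46.0 kb from the start (chr15:66747574-66748893) the groups had 7.24, 7.16 and 6.82 against 3.52, 3.84 and 4.33 normalised CPM (-0.87, SE 0.16). The 2 regions beyond the gene had values of -0.88 (SE 0.19) and -0.30 (SE 0.12), the second being the strongest region away from the start at 27.8 ± 1.69 normalised CPM in DMSO cells (SD, n = 3). The negative sign held for all 9 regions with library totals and DESeq2 size factors and for 8 of them with loess offsets, where the weak region at 71.9 kb stood at 0.03.

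SMAD7 is the broader inhibitor, acting on both BMP and TGF-beta receptors. Its wide start region (chr18:48938800-48953573), which covers the 3 listed start sites, had 71.2, 70.1 and 90.9 normalised CPM with DMSO and 104.5, 95.4 and 95.7 with OICR-9429. It rose by 0.35 on the log2 scale (SE 0.13, edgeR adjusted p = 0.0456), with no overlap. This call was held by few settings: it was lost with each of the other 3 scalings (0.02 with loess offsets), with DESeq2 and with any library other than DMSO replicate 3 left out. The 3 other regions, all outside the gene, lay between -0.06 and -0.01 on the log2 scale, and the signs of those 4.53 kb and 17.3 kb outside the span turned with loess offsets (0.14 and 0.15). Their 95% intervals reached from -0.42 at the lowest to 0.35 at the highest. The difference from SMAD6 was not tested.

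ID1 had the strongest start region of the 10 genes, and no ID gene had a called change at its start. ID1, whose product is the classic immediate target of BMP signalling, had a start region (chr20:31602157-31613646) with 151, 153 and 188 normalised CPM in DMSO and 216, 186 and 175 in OICR-9429 libraries. The groups overlapped through DMSO replicate 3 (log2 fold change 0.23, 95% interval -0.03 to 0.49, edgeR adjusted p = 0.159; -0.11 with loess offsets). Without DMSO replicate 3 the value was 0.34 (edgeR adjusted p = 0.0216). This region also overlaps the microRNA gene MIR3193 and a noncoding RNA gene.

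Upstream of ID1 a strong region moved the other way. Centred 10.5 kb before the start (chr20:31592702-31596968), it had 37.9, 38.6 and 39.0 normalised CPM in the DMSO libraries. In the OICR-9429 libraries it had 28.6, 25.2 and 21.7. The controls were almost identical and all treated libraries were below them, and the region fell by 0.61 on the log2 scale (SE 0.13, edgeR adjusted p = 0.00608). It was called lower under all 13 alternatives, with -0.88 under loess offsets. A second upstream region, 17.2 kb before the start, overlapped between groups, at 24.0 to 35.3 against 21.6 to 38.4 (log2 fold change 0.03, 95% interval -0.37 to 0.42; -0.17 with library totals and -0.21 with loess offsets).

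ID2 had a start region (chr2:8676602-8683508) with 66.8, 59.0 and 90.9 normalised CPM in DMSO and 100.1, 79.7 and 77.1 in OICR-9429 libraries. DMSO replicate 3 exceeded 2 of the treated libraries (log2 fold change 0.25, 95% interval -0.08 to 0.57, edgeR adjusted p = 0.231; -0.08 with loess offsets). Without that library the value was 0.45 (edgeR adjusted p = 0.0136). A weak region 11.4 kb past the start had 6.22, 5.04 and 6.88 against 4.69, 4.97 and 2.78, with no overlap and an edgeR adjusted p of 0.0649 (log2 fold change -0.53). The region 3.55 kb past the start overlapped between groups (-0.04, 95% interval -0.45 to 0.37).

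ID3 followed the same order. Its start region (chr1:23553926-23562466) had 63.0, 60.5 and 83.3 normalised CPM in DMSO and 85.5, 74.3 and 73.0 in OICR-9429 libraries, with overlap (log2 fold change 0.17, 95% interval -0.12 to 0.46, edgeR adjusted p = 0.350; -0.02 with library totals, -0.16 with loess offsets). Without DMSO replicate 3 it was 0.33 (edgeR adjusted p = 0.0288). Both regions upstream of ID3 were lower in every treated library. The nearer, 9.06 kb before the start, fell from 7.12 ± 1.75 to 4.82 ± 0.830 normalised CPM (SD, n = 3; log2 fold change -0.55, edgeR adjusted p = 0.0431), but not with loess offsets, nor without DMSO replicate 1 or 3 or OICR-9429 replicate 2 or 3 (edgeR adjusted p up to 0.205, with loess offsets). The farther, at 17.9 kb, had -0.33 (edgeR adjusted p = 0.0697), and the regions 15.2 and 19.1 kb past the start had 0.09 and -0.04, with signs that turned with library totals and loess offsets respectively.

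**Figure D3:**
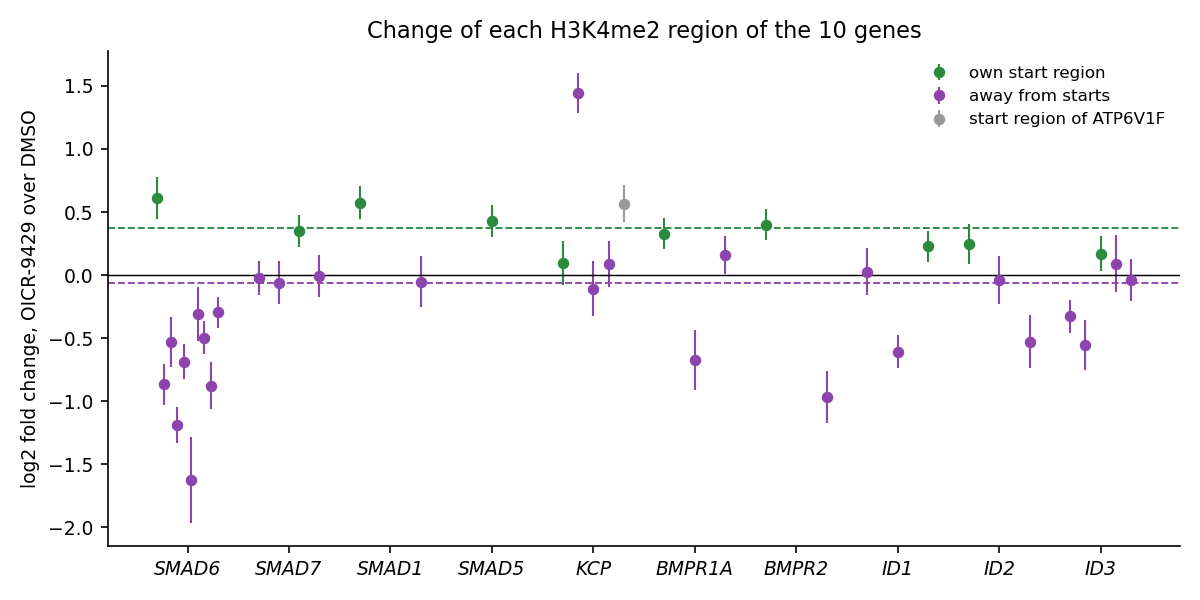
log2 fold change of each tested region of the 10 genes with its SE (bars), ordered by distance from the start within a gene; dashed lines are the medians over all start regions (0.38) and all regions away from starts (-0.07). All 10 own start regions lie above 0 with TMM, 3 of them below 0 with loess offsets and 2 with library totals, and 22 of the 27 tested regions away from starts lie below 0, or 12 of 15 without SMAD6 and KCP, which were chosen for their changes (23121 of 41019 over the whole table).

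Across the 23 regions of the 8 genes, 4 were called higher and 4 lower. The 4 higher were all own starts (SMAD1, SMAD5, SMAD7 and BMPR2, of 8 starts), and the 4 lower all lay away from them (ID1, ID3, BMPR1A and BMPR2, of 15 regions). Over the whole table, 52.7% of start regions were called higher and 2.43% lower, and 16.9% of regions away from starts were called lower and 8.20% higher. The 4 of 8 starts were close to that share, and their median was 0.34 beside 0.38 for all start regions. For the 15 regions away from starts the median was -0.05 beside -0.07, and groups did not overlap at 6 of them, all lower, where 25.9% of all such regions were lower in this way and 15.2% higher. Groups did not overlap at 5 of the 8 starts, all higher, beside 63.8% of all start regions higher and 3.68% lower in this way. Of the 8 calls, 3 held under all 13 alternatives: the SMAD1 start, the region inside BMPR2 and the region upstream of ID1.

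The scaling sets where 0 lies. The median of all regions was 0.03 with TMM, 0.00 with DESeq2 size factors, 0.02 with loess offsets and -0.17 with library totals, and the share of calls that were higher was 54.8%, 47.9%, 38.1% and 21.6% in that order. For gene sums that share was 94.5%, 92.7%, 37.4% and 65.8%. With loess offsets the start regions of ID1, ID2 and ID3 were below 0, and with library totals those of ID3 and KCP.

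A share within a gene is the same under any scaling with 1 factor per library, which holds for TMM, DESeq2 size factors and library totals. Loess offsets scale strong and weak regions differently, and no share was computed with them. The median log2 fold changes of start regions and of regions away from starts were 0.38 and -0.07 with TMM, and 0.11 and -0.02 with loess offsets. The share of a gene's counts that lay in its start region was compared for the 9 genes with counts both at and away from the start. At SMAD6 it was 33.0%, 29.6% and 43.7% in the DMSO libraries and 59.2%, 54.8% and 55.6% in the OICR-9429 libraries. At ID1 it was 69.9%, 71.0% and 71.7% against 76.3%, 77.8% and 80.2%, and at BMPR2 88.1%, 87.6% and 88.6% against 96.3%, 94.4% and 94.4%. KCP went the other way, with 11.2%, 11.7% and 11.0% against 8.87%, 8.57% and 7.34%, out of counts that include regions in or at other genes. These shares separated treated from control libraries without overlap. SMAD6 and KCP were chosen for changes of regions that enter their shares, so nothing is read from the separation in those genes.

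Of the 7 genes that could be tested, 6 had a higher start share in every OICR-9429 library, SMAD1 being the exception (76.2% to 84.3% against 83.3% to 91.0%). The differences were 4.85 percentage points at SMAD7, 2.91 at BMPR1A, 6.94 at BMPR2, 7.25 at ID1, 4.69 at ID2 and 6.49 at ID3. For each of these 6 an exact permutation test, two-sided, returned p = 0.1 (0.117 adjusted over the 7 genes), and 0.1 is the lowest value possible with 3 libraries a group. Among 9395 genes with counts at and away from the start, 38.5% had a higher share in every OICR-9429 library and 7.78% a lower one, and the median difference was 2.29 points. Restricted to regions that overlap the gene, 2 genes kept the separation, since the ID genes and SMAD7 then have no region away from the start.

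**Figure D4:**
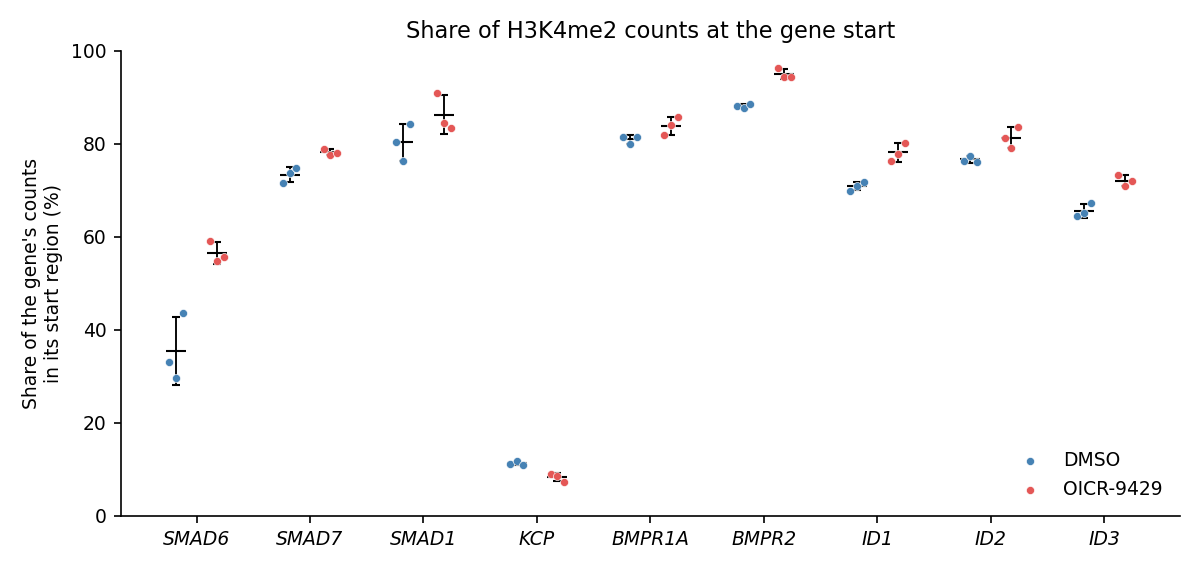
Share of each gene's H3K4me2 counts that lay in its start region (percent), by library (points), with the mean and SD of 3 libraries. The OICR-9429 libraries lie above the DMSO libraries in 7 of 9 genes, overlap them in SMAD1 and lie below them in KCP. Without SMAD6 and KCP, which were chosen for their changes, they lie above in 6 of 7. Over 9395 genes they lie above in 38.5% and below in 7.78%.

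Summed over all regions of a gene, the opposite changes partly cancelled. SMAD6 had 146, 149 and 172 normalised CPM with DMSO and 163, 145 and 143 with OICR-9429, so the groups overlapped (log2 fold change -0.05, SE 0.11; -0.34 with loess offsets). KCP had 78.8, 71.6 and 91.2 against 134, 113 and 99.4 (0.52, SE 0.13). This sum includes the regions in or at FLNC, ATP6V1F and SPMIP1, and with only regions that overlap KCP the value was 0.75. The receptor-regulated SMAD genes were the clearest of the 8: SMAD1 rose by 0.47 (SE 0.11) and SMAD5 by 0.43 (SE 0.12), with edgeR adjusted p of 0.0121 and 0.0161. BMPR2 rose by 0.29 (edgeR adjusted p = 0.0474), although its libraries overlapped between groups.

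The sums of BMPR1A (0.28, edgeR adjusted p = 0.0506) and SMAD7 (0.26, 0.0697) missed the threshold. Those of ID1, ID2 and ID3 were 0.09, 0.16 and 0.04 (edgeR adjusted p = 0.519, 0.382 and 0.805), and all 3 turned negative with library totals and with loess offsets (ID3 at -0.26, edgeR adjusted p = 0.0274). The sums of SMAD7, BMPR1A and BMPR2 were also below 0 with loess offsets. Of 16640 gene sums 46.9% were called higher and 2.74% lower, and 3 of the 8 were called higher. The 3 called sums were those of SMAD1, SMAD5 and BMPR2, and none of them was called without DMSO replicate 1 or without DMSO replicate 2, or with loess offsets.

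By the root mean square difference of mean-centred log2 sums over the 6 libraries, the genes most like SMAD6 were NANOS1 (0.016), CSPG4 (0.027) and SPTB (0.027), where the median over all genes was 0.21. Those most like KCP were ZNF761 (0.018), ZNHIT1 (0.020) and ZNF471 (0.024), with a median of 0.17 over all genes. KCP's neighbours in this order all had log2 fold changes between 0.49 and 0.53, and those of SMAD6 between -0.03 and -0.02. These genes were picked as the closest of all over the same libraries. Their like fold changes follow from that choice, and nothing is read from them.

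Another 75 genes of the pathway were taken by role. Of these 71 had a region within 20 kb, and 294 of their 313 regions were tested. Of the tested regions 54 were called higher and 40 lower, or 18.4% and 13.6%, beside 17.0% and 14.0% of all regions. At starts of any gene, neighbours included, 41 of 70 were higher and 1 was lower (52.7% and 2.43% of all start regions). At the list genes' own starts 28 of 52 were higher (53.8%) and 1 was lower. Away from starts 13 of 224 were higher and 39 lower (8.20% and 16.9% of all such regions). The 13 include regions overlapping NOG, HIPK2, HEY1 and SKI. No start within 1 kb was listed for those regions, and the start table is not complete, so they may lie at starts. Between roles, the share called higher at starts of any gene ran from 50.0% for ligands to 66.7% for targets. The targets role also lists the ID partners TCF3, TCF4 and TCF12. The share called lower away from starts ran from 2.94% for receptors to 25.9% for transducers.

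Ligand genes had 4 higher and 2 lower of 35 regions, or 11.4% and 5.71%, beside 17.0% and 14.0% of all regions. At starts of any gene 4 of 8 were higher, beside 52.7% over the whole table. The leading one was the start of BMP4, which encodes a principal BMP ligand: its region (chr14:53950005-53958021) went up from 99.5 ± 10.0 to 176 ± 16.1 normalised CPM (SD, n = 3; log2 fold change 0.83, SE 0.12, edgeR adjusted p = 0.000703). This was the highest of the gene sums as well (0.67), and the lowest was BMP10, a ligand of the heart, which fell by 0.41 (edgeR adjusted p = 0.0217). No gene sum of the list was called lower without DMSO replicate 1 or 2 or OICR-9429 replicate 2.

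Secreted modulators had 13 higher and 14 lower of 80 regions, or 16.3% and 17.5%, beside 17.0% and 14.0% of all regions. At starts of any gene 9 of 17 were higher, beside 52.7% over the whole table. Away from starts 13 of 63 were lower, or 20.6%, beside 16.9%. The start of FST, the gene of the ligand trap follistatin, went up from 60.7 ± 13.7 to 99.5 ± 7.25 normalised CPM (log2 fold change 0.71, edgeR adjusted p = 0.00473). A region overlapping NOG, the gene of the antagonist noggin, rose from 100.2 ± 17.7 to 149 ± 11.0 (0.57, adjusted p = 0.00768 by edgeR). The start region of SOST, which encodes the antagonist sclerostin, fell from 9.28 ± 0.759 to 4.19 ± 0.438 (-1.14, edgeR adjusted p = 0.000590). It lay within 1 kb of the listed start without overlapping the gene. Among regions at listed starts it was the lower one. Regions inside the procollagen C-proteinase genes BMP1 and TLL1, whose products cleave the antagonist chordin, fell by 0.90 and 1.47 (edgeR adjusted p = 0.00309 and 0.00393). The TLL1 region was weak, at 1.91 ± 0.306 normalised CPM with DMSO and 0.702 ± 0.237 with OICR-9429. The higher calls nearest CHRD and SOST lay at the starts of neighbours (CLCN2 and POLR2H at 0.69, CFAP97D1 and DUSP3 at 0.60).

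Receptor genes had 10 higher and 1 lower of 47 regions, or 21.3% and 2.13%, beside 17.0% and 14.0% of all regions. At starts of any gene 8 of 13 were higher, or 61.5%, beside 52.7% over the whole table. Away from starts 2 of 34 were higher, or 5.88%, beside 8.20%. Genes of signal transducers and their regulators had 10 higher and 15 lower of 72, or 13.9% and 20.8%. At starts of any gene 8 of 14 of these were higher. Away from starts 15 of 58 were lower, or 25.9%, beside 16.9% over the whole table. HIPK2, a nuclear kinase that binds SMAD corepressors, held both a region that fell from 7.12 ± 1.23 to 2.73 ± 0.0326 (-1.38, edgeR adjusted p = 0.000539) and one, shared with TBXAS1, that rose by 0.52 and lost its call with loess offsets (0.18). SMAD9, the third BMP-regulated SMAD, rose by 0.61 at its only region (edgeR adjusted p = 0.0139). It was named after its value was seen.

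The targets role, which here includes the ID partners TCF3, TCF4 and TCF12 beside target genes, had 17 higher and 8 lower of 60 regions. These were 28.3% and 13.3%, beside 17.0% and 14.0% of all regions. At starts of any gene 12 of 18 were higher, beside 52.7% over the whole table. Away from starts 5 of 42 were higher and 8 lower, beside 8.20% and 16.9%. Differences between roles were not tested. ID4, named after its value was seen, rose by 0.62 at its start (edgeR adjusted p = 0.0122) and fell by 0.55 at a second region (edgeR adjusted p = 0.0196). A region inside RUNX2, the osteoblast regulator, fell from 17.4 ± 0.236 to 10.4 ± 1.18 normalised CPM (-0.74, edgeR adjusted p = 0.00241), and one near TCF3, which encodes a partner of the ID proteins, fell by 1.24 (edgeR adjusted p = 0.00608). Of the 12 list regions named by rank here, the calls of 10 held in every setting run for them. The others were that of HIPK2 shared with TBXAS1 and that at DUSP3, lost without DMSO replicate 1. By gene sums 26 of 70 were called higher and 2 lower, or 37.1% and 2.86%, beside 46.9% and 2.74% of all gene sums.

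**Figure D5:**
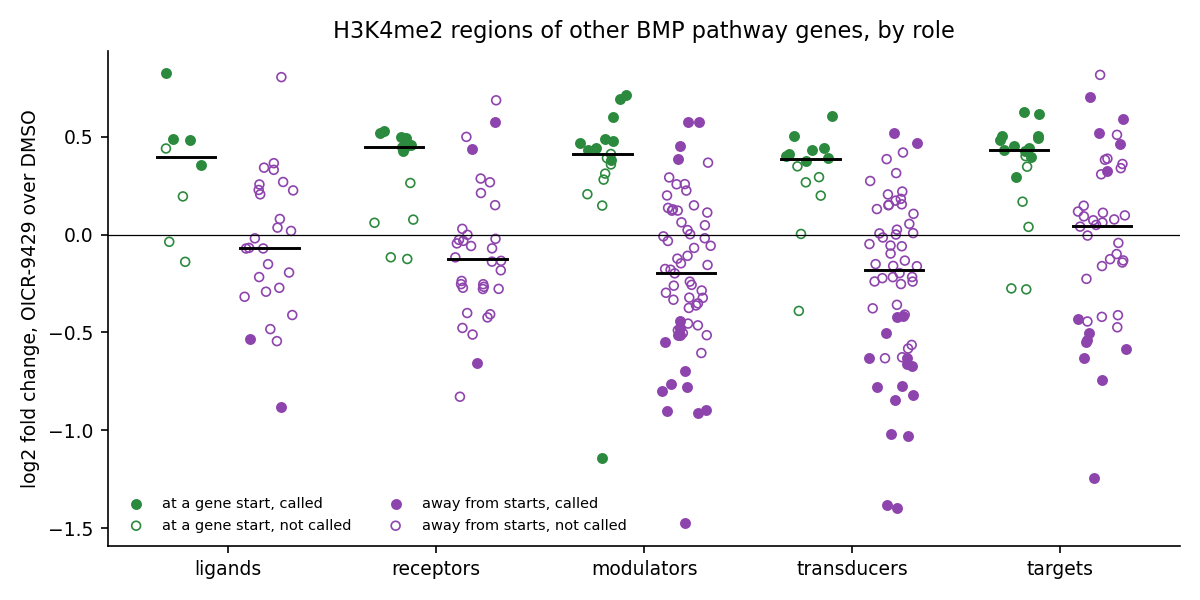
log2 fold change of each tested region of the other BMP pathway genes by role, at gene starts (green) and away from them (purple), with filled points for an adjusted p under 0.05 and black lines for medians. In each role the median at starts lies between 0.38 and 0.45, above the median away from starts (-0.20 to 0.05).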

How the data were processed

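The data are H3K4me2 ChIP-seq read counts. The authors deposited 1 table of raw read counts, not normalised, for 6 libraries over 54942 common regions. The submitters' processing notes name featureCounts, MACS2, Bowtie, DESeq2 and deepTools, with the builds dm6 and hg38. How reads were filtered and peaks merged is not given in the sources used here. Columns were matched to samples by the names in the sample descriptions.

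The 10 genes and the list of 75 were chosen with earlier results of these data known. The region test was edgeR 4.0.16 under R 4.3.3 (filterByExpr, TMM, robust glmQLFit, glmQLFTest, 3 against 3 libraries, no covariate, Benjamini-Hochberg over 51156 tested regions, threshold 0.05). The SE was derived from the log2 fold change and its F statistic. Normalised CPM are counts over TMM-scaled library sizes. Gene sums add all regions within 20 kb for every protein-coding gene, so a region can count for several genes. TMM is relative, so a change shared by all regions cannot be seen. Gene spans and starts came from RefSeq tables of GRCh38.p14, the build of hg38. The start table is not complete, so some start regions count as away from starts, and no exon or intron is assigned. The named regions are the start, strongest and extreme regions of each gene, the 6 list regions with the smallest p in each direction (each gene once), the extreme gene sums, and the 3 genes closest to SMAD6 and to KCP (log2 of normalised CPM + 0.5).

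The alternatives tried were scaling by library totals, by DESeq2 size factors or by loess offsets (span 0.3), dropping the filter or requiring 50 counts on average, the DESeq2 1.42.0 Wald test, a block for replicate number, each library left out, an adjusted p under 0.01, and other windows. The scripts were tested on simulated data.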

Additional observations from a re-analysis of the deposited data

How the results depend on the processing

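Of the 8 genes' regions, 4 were called lower and 4 higher. The lower calls were 6 with library totals and 5 with DESeq2 size factors. They were 2 with loess offsets, with an adjusted p under 0.01 and among regions that overlap a gene span, and 2 to 4 with a library left out. The higher calls were 1 with library totals, with loess offsets and at 0.01, and 1 to 8 with a library left out (1 without DMSO replicate 1 or 2 or OICR-9429 replicate 3, 2 without OICR-9429 replicate 2, 8 without DMSO replicate 3). Of the 8 gene sums, 3 were called higher and 0 lower: 1 higher with library totals, 0 with loess offsets (1 lower, ID3) and 0 at 0.01, 5 with regions overlapping the gene, and 0 to 6 with a library left out (0 without DMSO replicate 1 or 2, 6 without DMSO replicate 3, 1 without OICR-9429 replicate 1). All 8 sums were above 0 with TMM, so none could be called lower there at any threshold. With loess offsets 6 of the 8 sums turned below 0: SMAD7 (-0.03), BMPR1A (-0.02), BMPR2 (-0.0027), ID1 (-0.19), ID2 (-0.13) and ID3 (-0.26). The SMAD6 region at 71.9 kb turned above 0 (0.027).

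In the pathway list 40 regions were lower and 54 higher. Lower and higher were 70 and 26 with library totals, 24 and 10 with loess offsets, and 11 and 9 at 0.01. Over all 51156 tested regions, 7179 were lower and 8709 higher with TMM. Those became 11986 and 3296 with library totals, and 4551 and 2799 with loess offsets. With a library left out the lower calls ran from 18 (without DMSO replicate 2) to 47 (without OICR-9429 replicate 1) and the higher from 6 (without DMSO replicate 1) to 79 (without DMSO replicate 3). The list's gene sums, 2 lower and 26 higher, were 4 and 11 with library totals, 8 and 4 with loess offsets, 0 and 0 at 0.01, and 0 to 2 lower and 0 to 46 higher with a library left out. The 6 genes with separated start shares became 2 when only regions overlapping the gene were used. The cause of these shifts was not tested.

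With the replicate number as a block 2 regions of the 8 genes were lower and 3 higher, 2 of their sums were higher, and 0 sums of the list were lower and 19 higher. The block ended the calls of the SMAD7 start (edgeR adjusted p = 0.0650), the BMPR1A region at 39.6 kb (0.0509), the ID3 region at -9.06 kb (0.0880) and the BMPR2 sum (0.0612). The samples share only a number. Deviations of same-numbered libraries correlated at -0.19, 0.21 and -0.23, and those of differently numbered ones at -0.31 to 0.36. Deviations from a mean of 3 libraries depend on each other, so these values cannot decide whether the numbers pair the samples.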
